A study of Mus musculus and Homo sapiens with 22 samples.

Results

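RNA extracted from the chromatin, nucleoplasm and cytoplasm of HEK293 cells, a human embryonic kidney cell line, was denatured, refolded and then probed by icSHAPE, and the same nucleotides of the same transcripts were compared between the 3 compartments. A transcript was taken when at least 100 of its nucleotides carried a score in all 3 files. This gave 681 transcripts of 26676 listed in at least 1 of the 3 files, and 2482 were listed in all 3. The study probed fractions of HEK293 and of V6.5 mouse embryonic stem (mES) cells, in living cells (in vivo) and after refolding (in vitro), each with a DMSO control. It also mapped Lin28A binding in Mettl3 wild-type and knockout mES cells, which is not used here. In the 3 groups described here, RNA was purified after fractionation, heated to 95 °C for 1 min, cooled to 4 °C, folded for 5 min in HEPES (100 mM) with NaCl (100 mM) and MgCl2 (6 mM), and treated with NAI-N3 for 5 min at 37 °C. Chromatin, nucleoplasm and cytoplasm RNA therefore met the same buffer and reagent, without the cell around it. Each group was 1 sample, the cells carried no stated genetic change, and the 3 compartments are not replicates of each other, so no p-value or replicate error is given.

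In icSHAPE, flexible nucleotides, mostly unpaired ones, are acylated at their 2′-hydroxyl by NAI-N3, and the modified positions are read by sequencing. A score near 0 marks a nucleotide that hardly reacted and a score near 1 one that reacted strongly. Chromatin RNA is known to be rich in nascent and retained transcripts, nucleoplasm holds transcripts released from chromatin, and cytoplasm holds mature mRNA, much of it bound by ribosomes. Refolded RNA has lost its proteins and ribosomes, so such probing is used to read how an RNA folds by itself; its scores can also move with RNA modification, isoform, depth and scaling, which were not separated here. The files pair no gene name with a transcript, so transcripts are given by their Ensembl identifiers and no role is stated for them.

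The chromatin file listed 10264 transcripts, the nucleoplasm file 19295 and the cytoplasm file 11830. They held 2660621, 6437699 and 6083906 scored nucleotides in the same order. Chromatin shared 3975 transcripts with nucleoplasm, 38.7% of the chromatin list and 20.6% of the nucleoplasm list. Chromatin shared 2558 with cytoplasm, 24.9% and 21.6% of the 2 lists. Nucleoplasm shared 10662 with cytoplasm, 55.3% and 90.1%. Chromatin was thus the smallest list and limited which transcripts could be compared. The labels state the same approximate read number per replicate for the 3 compartments, and about 2 µg RNA left after rRNA removal for chromatin against about 500 ng for each of nucleoplasm and cytoplasm; the sources used here do not give the reads behind each score.

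The 681 transcripts were from 136 to 19275 nt long, with a median of 1923 nt. They shared from 100 to 18060 scored nucleotides, with a median of 261 and a total of 392541. Before the restriction to shared nucleotides, the median transcript was scored over 31.1% of its scorable length in chromatin, 75.5% in nucleoplasm and 72.2% in cytoplasm. Chromatin was thus the file that most limited which nucleotides were shared: 72.3% of the nucleotides scored in these transcripts in chromatin were used, against 34.7% in nucleoplasm and 38% in cytoplasm. Patterns of scores marked 54 of the transcripts as near-identical to others, in 10 families of up to 14, so transcripts are not independent.

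Refolded chromatin RNA had the lowest scores. Mean scores per transcript in chromatin lay between 0.0614 and 0.351, with a median of 0.187 (SD over transcripts 0.0436). In nucleoplasm it ranged from 0.0571 to 0.381, with a median of 0.231 (SD 0.0540). In cytoplasm it ranged from 0.0387 to 0.349, with a median of 0.216 (SD 0.0552). The ranges overlapped nearly whole, and the shift was seen within transcripts: chromatin was the lowest of the 3 compartments in 439 transcripts (64.5%), cytoplasm in 168 and nucleoplasm in 74. Nucleoplasm was the highest in 353 (51.8%), cytoplasm in 258 and chromatin in 70 (10.3%). The most frequent order, from high to low, was nucleoplasm, cytoplasm, chromatin, in 229 transcripts. Next came cytoplasm, nucleoplasm, chromatin in 210 and nucleoplasm, chromatin, cytoplasm in 124. The gap between the highest and lowest compartment of a transcript had a median of 0.0636; it was at least 0.1 in 105 transcripts and under 0.02 in 43.

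**Figure D1:**
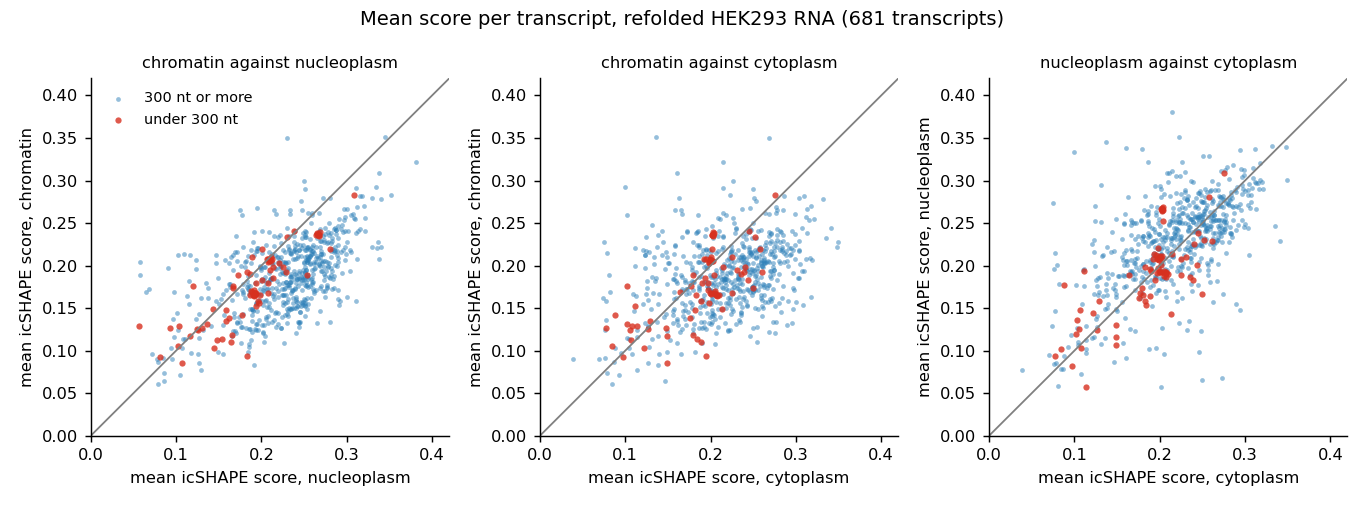
Mean icSHAPE score (0 to 1, no unit) of each of 681 transcripts over its shared nucleotides, 1 point per transcript, with the line of equality; red points are the 79 transcripts under 300 nt. Most points lie below the line for chromatin against nucleoplasm and for chromatin against cytoplasm, while those for nucleoplasm against cytoplasm lie on both sides of it.

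Between chromatin and nucleoplasm, chromatin was higher in 118 transcripts and lower in 563, so that 17.3% were higher (95% interval 14.6 to 20.4%). The median difference, chromatin minus nucleoplasm, was -0.0419, with quartiles of -0.0668 and -0.0124 and a range from -0.152 to 0.146. Of the 977 transcripts that could be compared in this pair alone, 18.3% were higher in chromatin and 81.7% lower. A difference of at least 0.05 in favour of chromatin was found in 23 transcripts (3.38%), against a background of 3.28% in the pair, and one of at least 0.05 against chromatin in 276 (40.5%), against a background of 39.8%. In each comparison the background takes all nucleotides scored in both files of the pair. Here the 681 make up most of that background, so nothing is read from its nearness. Over all nucleotides of the pair, 16.9% of the 681 were higher in chromatin (14.1 to 19.9%), against 21.6% of the other 296 transcripts (17.1 to 26.8%), and these intervals overlap. The intervals printed here are exact (Clopper-Pearson) and cover only the counting of transcripts, and since some transcripts share sequence, they are too narrow.

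Named transcripts were the 5 highest and 5 lowest differences that kept their sign in deposited scores, in ranks over the shared nucleotides, in nucleotides above 0, and in odd and in even nucleotides. ENST00000395422 (901 nt) had the lowest difference, with a mean of 0.159 in chromatin, 0.311 in nucleoplasm and 0.271 in cytoplasm over 278 nt. ENST00000526586 had means of 0.134 in chromatin, 0.280 in nucleoplasm and 0.201 in cytoplasm. ENST00000378700, which had 837 shared nucleotides, had means of 0.132, 0.266 and 0.295 in chromatin, nucleoplasm and cytoplasm. These transcripts had many silent nucleotides in chromatin or few reactive ones: scores of 0 made up 30.9% of ENST00000395422 in chromatin against 8.27% in nucleoplasm, and scores of 0.5 or more made up 4.18% of ENST00000378700 in chromatin against 15.9% in nucleoplasm. ENST00000224237 (0.153 in chromatin, 0.291 in nucleoplasm) and ENST00000544079 (0.163 and 0.300) completed the 5. These 5 transcripts were scored far more thinly in chromatin than in nucleoplasm; ENST00000224237, at 8.02% of its scorable length against 99.3%, was the widest gap among them.

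At the other end, ENST00000598466 (601 nt) had a mean of 0.204 in chromatin, 0.0577 in nucleoplasm and 0.201 in cytoplasm over 174 nt. No shared nucleotide of it reached 0.5 in nucleoplasm, where the maximum was 0.381, while 13.2% did in chromatin and 10.3% in cytoplasm. ENST00000598399 had means of 0.189 in chromatin, 0.0581 in nucleoplasm and 0.0807 in cytoplasm. For ENST00000598466 the nucleoplasm was the one low compartment, and for ENST00000598399 both nucleoplasm and cytoplasm were low. ENST00000438067 had means of 0.351, 0.230 and 0.269, ENST00000498815 of 0.213, 0.103 and 0.196, and ENST00000550479 of 0.197, 0.0911 and 0.160, each for chromatin, nucleoplasm and cytoplasm. Coverage was mixed in these 5: ENST00000598466 was scored over 91.2% of its scorable length in chromatin and 35.2% in nucleoplasm, ENST00000438067 over 10.8% and 10.1%, and ENST00000550479 over 46.1% and 67.2%.

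Between chromatin and cytoplasm, 194 transcripts were higher in chromatin and 487 lower, or 28.5% higher (25.1 to 32%). The median difference was -0.0323, with quartiles of -0.0622 and 0.0054 and a range from -0.163 to 0.215. Of all 710 transcripts of the pair, 28.6% were higher in chromatin and 71.4% lower. At least 0.05 separated chromatin upward in 58 transcripts (8.52%, background 8.73%) and downward in 236 (34.7%, background 35.1%). ENST00000586803, lower in chromatin, had means of 0.130 in chromatin, 0.155 in nucleoplasm and 0.289 in cytoplasm. ENST00000366815 had 0.121, 0.24 and 0.275 for the same 3 compartments, and ENST00000378700, ENST00000544079 and ENST00000224237 recurred from the comparison with nucleoplasm, which shares the chromatin file.

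The transcripts highest in chromatin against cytoplasm were those in which cytoplasm was low. ENST00000428216 (11714 nt, 124 shared) had means of 0.351 in chromatin, 0.345 in nucleoplasm and 0.137 in cytoplasm. ENST00000595527 (2274 nt, 156 shared) had means of 0.293 in chromatin, 0.334 in nucleoplasm and 0.0993 in cytoplasm. Zeros filled 17.3% of its shared nucleotides in chromatin and 42.9% in cytoplasm. ENST00000489705 had 0.228, 0.274 and 0.0755, and ENST00000341446 had 0.309, 0.338 and 0.160 for chromatin, nucleoplasm and cytoplasm. In these 4 transcripts both nuclear compartments stood above cytoplasm. ENST00000380381, with 0.260 in chromatin, 0.177 in nucleoplasm and 0.102 in cytoplasm, stepped down from compartment to compartment.

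Between nucleoplasm and cytoplasm, 397 transcripts were higher in nucleoplasm and 284 lower, or 58.3% higher (54.5 to 62%). The median difference was 0.0090, with quartiles of -0.0160 and 0.0366 and a range from -0.204 to 0.235. Of all 6151 transcripts of the pair, 44.5% were higher in nucleoplasm and 55.5% lower, so the direction was the opposite one. Over all nucleotides scored in both files, not only those scored in chromatin too, 54.2% of the 681 were higher in nucleoplasm (50.4 to 58%), against 43.3% of the other 5470 transcripts (42 to 44.6%). These intervals do not overlap, and no test beyond them was run. At least 0.05 separated them upward in 116 (17%, background 8.8%) and downward in 47 (6.90%, background 11.6%). These shares of the 681 use only nucleotides also scored in chromatin, and the background uses all nucleotides scored in both files. They are therefore not like for like, and nothing is read from the gap.

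ENST00000595527, ENST00000428216, ENST00000489705 and ENST00000341446 headed this comparison too, and ENST00000618925 had means of 0.322 in chromatin, 0.381 in nucleoplasm and 0.215 in cytoplasm. ENST00000322213 (9784 nt, 1403 shared) was the lowest, with means of 0.173 in chromatin, 0.0683 in nucleoplasm and 0.273 in cytoplasm. ENST00000375340, with 0.169, 0.0651 and 0.249, gave almost the same values. In nucleoplasm 0.428% of the shared nucleotides of ENST00000322213 had a score of 0.5 or more, against 19.3% in cytoplasm. Scores of 0 were fewer in nucleoplasm, at 13.3%, than in cytoplasm, at 23.8%. The nucleoplasm scores of this transcript thus lay mostly above 0 but near the low end. ENST00000601492 (0.170 in chromatin, 0.0981 in nucleoplasm, 0.246 in cytoplasm), ENST00000598182 (0.212, 0.147, 0.294) and ENST00000598466 completed the low end.

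**Figure D2:**
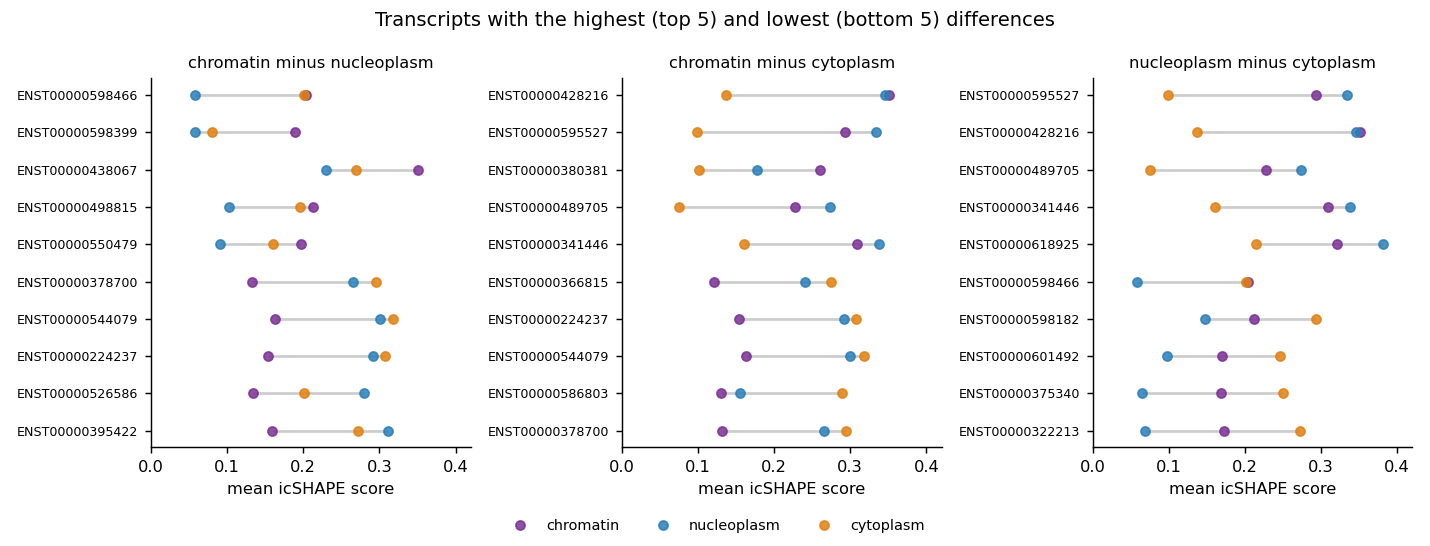
Mean icSHAPE score over shared nucleotides in the 3 compartments for the 5 highest and 5 lowest differences of each comparison that kept their sign under 5 treatments of the scores. Each row is 1 transcript, with points for chromatin, nucleoplasm and cytoplasm. Within its row, the nucleoplasm point is the lowest of the 3 in the top 5 of the first panel. The cytoplasm point is the lowest in the top 5 of the others.

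Low scores in chromatin came with more silent nucleotides and with smaller values above 0. Scores of exactly 0 had a median share per transcript of 27.6% in chromatin, 15.3% in nucleoplasm and 21.6% in cytoplasm. The share was higher in chromatin than in nucleoplasm in 576 transcripts (84.6%) by a median of 10.6 percentage points. It was higher in chromatin than in cytoplasm in 451 (66.2%) by a median of 5.95 points, and higher in nucleoplasm than in cytoplasm in 134 (19.7%), with a median of -3.76 points. Among nucleotides above 0 in all 3 files, the difference between compartments stayed: 17%, 27% and 55.5% of transcripts were higher in chromatin against nucleoplasm, chromatin against cytoplasm and nucleoplasm against cytoplasm. Its medians were -0.0515, -0.0433 and 0.0099. Strongly reactive nucleotides, with a score of 0.5 or more, filled a median of 11.6% of a transcript in chromatin, 14.8% in nucleoplasm and 14.3% in cytoplasm.

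With zeros counted, signal in chromatin was more unevenly spread along a transcript. The Gini index, which is 0 for an even profile and nears 1 when a few nucleotides hold all the signal, had a median of 0.632 in chromatin, 0.564 in nucleoplasm and 0.586 in cytoplasm. It was higher in chromatin than in nucleoplasm in 89.7% of transcripts and than in cytoplasm in 79.1%. Nucleoplasm exceeded cytoplasm in 37.6%. The index includes scores of 0 and so rises with the share of zeros given above, and it is not a separate trait. Unevenness among nucleotides above 0 was not measured.

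Chromatin was not low relative to the rest of its file. With every nucleotide replaced by its rank among all scored nucleotides of its file, chromatin exceeded nucleoplasm in 60.5% of transcripts and cytoplasm in 63.6%, and nucleoplasm exceeded cytoplasm in 52%. By these ranks chromatin was the highest compartment in 339 transcripts (49.8%) and the lowest in 175. Ranking within the file sets each transcript against its file, whose mean over all scored nucleotides was 0.171 in chromatin, 0.231 in nucleoplasm and 0.228 in cytoplasm. By deposited scores the transcripts were mostly low in chromatin, and relative to the rest of their file they were mostly high there. Ranked over the shared nucleotides alone, the shares were 48.9%, 51.2% and 47.4%. That ranking gives the 3 files the same mean over the nucleotides compared, so shares near 50% follow from it and say nothing of an overall shift; it serves only to order transcripts. The direction was kept in all 5 treatments (deposited scores, ranks over shared nucleotides, nucleotides above 0, odd and even nucleotides) for 91 transcripts higher and 342 lower in chromatin against nucleoplasm. For chromatin against cytoplasm these were 144 and 324, and for nucleoplasm against cytoplasm 285 and 240. Because ranks over shared nucleotides are 1 of the 5 treatments, these counts serve to pick transcripts and do not measure an overall shift. By those ranks alone, 333 transcripts were higher and 348 lower in chromatin against nucleoplasm. Odd and even nucleotides are parts of the same deposited scores.

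**Figure D3:**
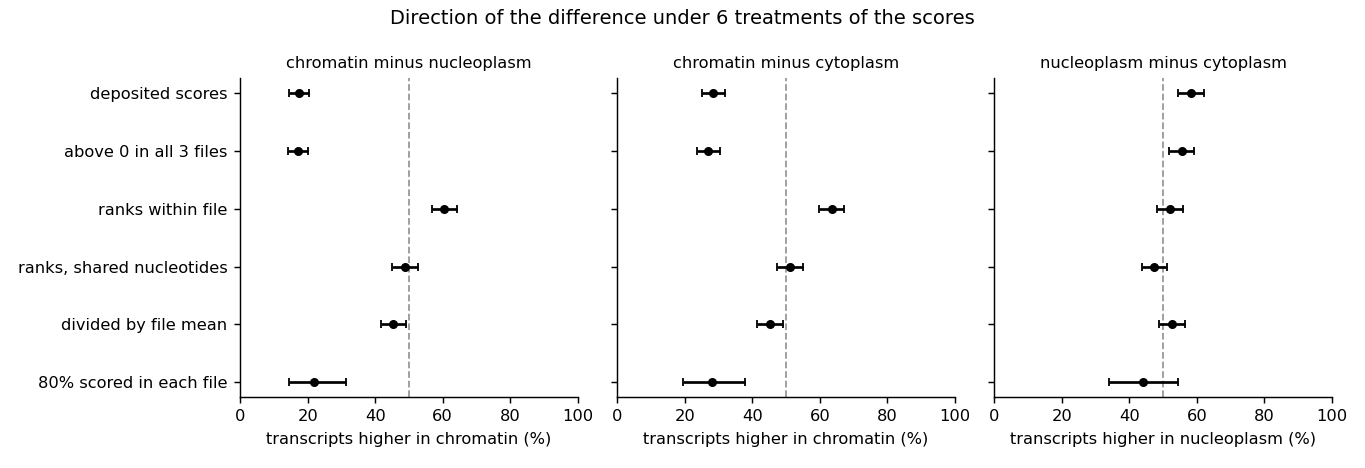
Share of transcripts (%) whose mean was higher in the first-named compartment, with 95% exact binomial intervals, for 6 treatments of the scores; the dashed line is at 50%. Deposited scores and nucleotides above 0 place chromatin below nucleoplasm and cytoplasm, ranks within the file place it above both, and the last row holds the 100 transcripts with at least 80% scored in each file. Ranks over shared nucleotides and division by the file mean make the files equal over the nucleotides compared, which by itself brings the share towards 50%.

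The sources used here do not say how the authors scaled scores, and the files show a ceiling that moves with coverage. The following splits by coverage, length and abundance were chosen after values had been seen. In transcripts scored over at least 90% of their scorable length, nucleotides at exactly 1 had a median share of 5.13% for chromatin, and of 5.02% for nucleoplasm and for cytoplasm alike. In ENST00000602361 (268 nt), scored at the same 232 positions in every file, 12 nucleotides were at 1 in each. Where under 20% was scored, the share at 1 fell to 1.83%, 2.00% and 1.47%. Partly scored transcripts thus had fewer of the highest scores, and chromatin was the compartment most often partly scored. Over the shared nucleotides, however, the share at 1 was 3.27% in chromatin, 3.69% in nucleoplasm and 3.27% in cytoplasm. The part of this ceiling in the differences between compartments was not tested.

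Over the 100 transcripts with at least 80% scored in each file, chromatin was higher than nucleoplasm in 22% and higher than cytoplasm in 28%, with medians of -0.0206 and -0.0196. Over the other 581 the shares were 16.5% and 28.6%, with medians of -0.0469 and -0.0343. The direction of both chromatin comparisons held in fully scored transcripts, at a smaller size. Nucleoplasm against cytoplasm showed no clear direction in the 100 (44% higher in nucleoplasm, 34.1 to 54.3%), against 60.8% in the 581. Of the 100, 63 were under 300 nt.

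Deposited scores and ranks within the file parted widely in some classes. Of 79 transcripts under 300 nt, 24.1% were higher in chromatin than in nucleoplasm by deposited scores and 96.2% by ranks within the file. Against cytoplasm the shares were 41.8% and 84.8%. A like gap was seen in a class set by abundance, from which transcripts under 300 nt were not removed. It held the 144 transcripts (median length 615 nt) whose abundance in chromatin was more than 2 times that in nucleoplasm. In these, chromatin exceeded nucleoplasm in 24.3% by deposited scores and 91.7% by ranks within the file. Median zeros were alike across compartments under 300 nt, at 30.3% (chromatin), 31.4% (nucleoplasm) and 32.3% (cytoplasm). For the 144 transcripts set by abundance, these medians were 27.1%, 20.7% and 30.5%, with nucleoplasm the lowest. For transcripts of 3000 nt or more they were 27.9%, 15.9% and 22.9%. Chromatin exceeded nucleoplasm in 12.8% of those 257 long transcripts and cytoplasm in 26.5%, and nucleoplasm exceeded cytoplasm in 69.6%.

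Abundance, an authors' signal per transcript with no stated unit, moved with some of these values. Its median was 14.6 in chromatin, 23.8 in nucleoplasm and 34 in cytoplasm. Split into 4 equal classes by the lowest of their 3 abundances, the transcripts were higher in nucleoplasm than in cytoplasm in 72.5%, 61.8%, 52.9% and 45.9%, from the lowest class to the highest. The chromatin comparisons did not order in this way, with 14.0%, 11.8%, 21.2% and 22.4% higher than in nucleoplasm and 31%, 27.6%, 24.1% and 31.2% higher than in cytoplasm. Among 317 transcripts whose abundance in chromatin and nucleoplasm was within 2 times, 12.6% were higher in chromatin. Across the 681 transcripts, the log2 abundance ratio correlated with the difference in zeros at a Pearson's r of -0.466, -0.613 and -0.391 for chromatin and nucleoplasm, chromatin and cytoplasm, and nucleoplasm and cytoplasm. With the difference in score r was 0.105, 0.270 and 0.113. These describe transcripts that share files and partly share sequence, and the part of abundance in the differences was not tested.

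The pattern along a transcript was largely shared between compartments. Pearson's r over shared nucleotides had a median of 0.725 for chromatin and nucleoplasm (quartiles 0.637 and 0.837), 0.581 for chromatin and cytoplasm (0.483 and 0.689) and 0.754 for nucleoplasm and cytoplasm (0.640 and 0.850). Chromatin and cytoplasm were the least alike pair in 637 transcripts (93.5%). The most alike pair was nucleoplasm and cytoplasm in 368 transcripts, chromatin and nucleoplasm in 308, and chromatin and cytoplasm in 5. In most transcripts, then, the pair without nucleoplasm was the least alike. An r of at least 0.8 was reached by 214 transcripts for chromatin and nucleoplasm, 80 for chromatin and cytoplasm, and 270 for nucleoplasm and cytoplasm.

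Likeness was higher in abundant and in short transcripts, which overlap: the 4 abundance classes had median lengths of 4372, 2839, 1290 and 331 nt from the lowest to the highest. In the same order, the median r was 0.623, 0.674, 0.741 and 0.896 for chromatin and nucleoplasm, 0.470, 0.531, 0.602 and 0.764 for chromatin and cytoplasm, and 0.620, 0.715, 0.793 and 0.875 for nucleoplasm and cytoplasm. In each of the 4 classes chromatin and cytoplasm had the lowest median. By length, the median r for chromatin and nucleoplasm was 0.936 under 300 nt, 0.810 from 300 to under 1000 nt, 0.722 from 1000 to under 3000 nt and 0.647 at 3000 nt or more. Abundance and length were not separated. Among transcripts with at least 200 shared nucleotides, ENST00000363442 (313 nt) had the highest median r, at 0.973, 0.902 and 0.931 for chromatin and nucleoplasm, chromatin and cytoplasm, and nucleoplasm and cytoplasm. ENST00000581458 (321 nt) and ENST00000602361 came next, so the 3 most alike were short. The least alike was ENST00000415930 (4000 nt, 465 shared), at 0.317, 0.276 and 0.647, followed by ENST00000498926 and ENST00000330374. ENST00000402297 (3158 nt, 148 shared), chosen after its values were seen, had the only negative r of these transcripts: -0.19 for chromatin and cytoplasm, beside 0.782 for chromatin and nucleoplasm and 0.144 for nucleoplasm and cytoplasm.

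**Figure D4:**
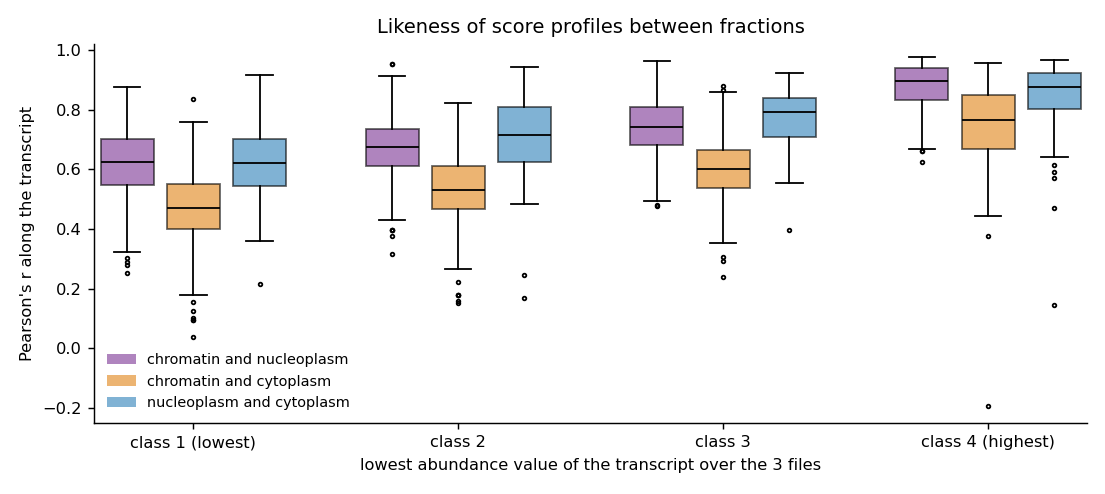
Pearson's r along each transcript for the 3 pairs of compartments, in 4 equal classes (low to high) by the lowest of their 3 abundance values; boxes span the quartiles with the median, whiskers reach at most 1.5 times that span, and points lie beyond. Chromatin and cytoplasm have the lowest median in every class, from 0.470 to 0.764.

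Nucleotide by nucleotide, 48.7% of the 392541 positions fell in the same class (0, above 0 but under 0.5, 0.5 or more) in all 3 compartments. A score of 0 in all 3 was found at 21915 positions (5.58%) and one of 0.5 or more in all 3 at 22060 (5.62%). A position silent in chromatin alone was more frequent, at 46726 (11.9%), than one silent in cytoplasm alone, at 30931 (7.88%), or in nucleoplasm alone, at 11550 (2.94%). Of positions at 0.5 or more in chromatin, 64.8% were also there in nucleoplasm and 52.9% in cytoplasm. A full contrast, 0 in 1 compartment and 0.5 or more in another, was rare, at 7224 positions (1.84%).

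Local differences were read in 8150 windows of 30 nt from 627 transcripts, a length and a threshold chosen after values had been seen. A window was called when its mean was at least 0.15 above, or below, both other compartments. Chromatin was higher in 22 windows (0.270%; 0.272% in windows of all transcripts with windows in the 3 files) and lower in 177 (2.17%; background 2.1%). Nucleoplasm was higher in 176 (background 2.09%) and lower in 121 (background 1.44%), and cytoplasm higher in 165 (background 1.98%) and lower in 86 (background 1.09%). The background is nearly the same windows, so nothing is read from its nearness. Without ENST00000429829, the longest transcript, nucleoplasm was higher in 76 and lower in 6 of 7563 windows, and chromatin higher in 19 and lower in 176. In 1699 windows (20.8%) the 3 means lay within 0.05 of each other.

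The windows named here had the largest or next largest gap to both other compartments in their kind of call. Nucleotides 1171 to 1200 of ENST00000373586 had means of 0.159 in chromatin, 0.480 in nucleoplasm and 0.502 in cytoplasm. Nucleotides 5131 to 5160 of ENST00000586602 went the opposite way, with 0.574 in chromatin, 0.298 in nucleoplasm and 0.257 in cytoplasm. Nucleotides 1351 to 1380 of ENST00000595527 had 0.488 and 0.604 in chromatin and nucleoplasm against 0.0398 in cytoplasm, where 13 of the 30 were at 0. In ENST00000428216, nucleotides 6241 to 6270 had 0.426 in chromatin and 0.439 in nucleoplasm and 0.0011 in cytoplasm, with 23 of 30 at 0. In both stretches the cytoplasm mean was low beside the nuclear ones. Both transcripts were thinly scored in every compartment. ENST00000428216 was scored over 9.75%, 3.13% and 4.14% of its scorable length in chromatin, nucleoplasm and cytoplasm. For ENST00000595527 these were 18.5%, 18.7% and 14.1%. Cytoplasm was highest against both others at nucleotides 5551 to 5580 of ENST00000322213, with 0.147 in chromatin, 0.0499 in nucleoplasm and 0.518 in cytoplasm. For nucleoplasm the largest gaps were both in ENST00000429829: nucleotides 17341 to 17370 had 0.176, 0.60 and 0.179, and nucleotides 2371 to 2400 had 0.646, 0.254 and 0.651, for chromatin, nucleoplasm and cytoplasm. At the other extreme, 54 windows had a mean under 0.05 in all 3 compartments and 109 one of 0.4 or more in all 3.

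ENST00000429829 (19275 nt) carried the most shared nucleotides, 18060, and its compartments differed in shape as well as in level. They also differed in abundance, at 2937 in chromatin, 68.7 in nucleoplasm and 64.2 in cytoplasm. The part of abundance in what follows was not tested. Mean scores of this transcript were 0.265, 0.233 and 0.285 for chromatin, nucleoplasm and cytoplasm. In the first 1000 nt they were 0.195, 0.107 and 0.226, and from 18001 to 19000 they were 0.274, 0.546 and 0.220. Nucleoplasm was the lowest compartment in each bin of 1000 nt up to 12000 and the highest in each from 13001 on. Over bins with at least 200 shared nucleotides, chromatin stayed between 0.195 and 0.320 and cytoplasm between 0.193 and 0.371. Over the last of 3 equal stretches its nucleoplasm mean was 0.423, against 0.131 over the first, a rise of 0.292. No other of 181 transcripts with at least 500 shared nucleotides rose by more than 0.109 in nucleoplasm, and the median change over them was -0.010. In 587 windows of this transcript nucleoplasm was higher than both others in 100 and lower than both in 115. The transcripts next in shared nucleotides were both lowest in chromatin and highest in nucleoplasm: ENST00000324545 (7781 shared) had 0.232 in chromatin, 0.283 in nucleoplasm and 0.248 in cytoplasm, and ENST00000397786 (6839 shared) had 0.227, 0.282 and 0.270.

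**Figure D5:**
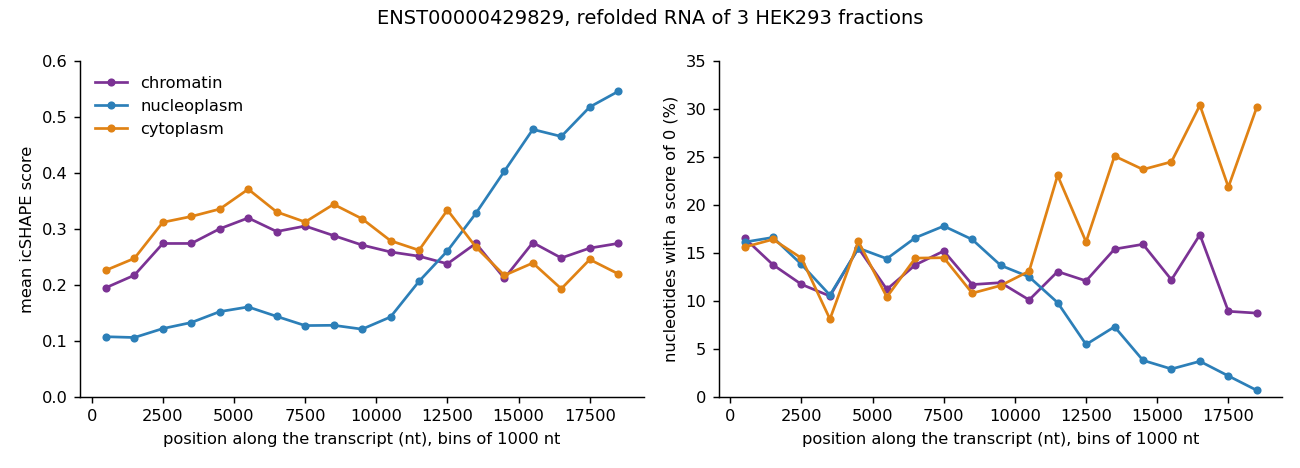
Mean icSHAPE score (left) and percent of nucleotides scored 0 (right) of ENST00000429829 in bins of 1000 nt with at least 200 shared nucleotides, against position along the transcript in nt, for chromatin, nucleoplasm and cytoplasm. The nucleoplasm line climbs to 0.546 while the chromatin line stays between 0.195 and 0.320.

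Coding sequence is read in codons of 3 nt, and reactivity with a period of 3 nt is known from probed mRNA. A ratio of the power at 3 nt to that of 24 neighbouring frequencies was taken in the 181 transcripts with at least 500 shared nucleotides. In chromatin it was above 5 in 32 transcripts (17.7%, 12.4 to 24%), against 31 (17.1%, 11.9 to 23.4%) for nucleoplasm and 12 (6.63%, 3.47 to 11.3%) for cytoplasm. At 2 control frequencies no more than 2.21% passed in any compartment. The ratio was higher in chromatin than in cytoplasm in 63% of transcripts (55.5 to 70.03%) and higher in nucleoplasm than in cytoplasm in 61.3% (53.8 to 68.5%), and in chromatin against nucleoplasm in 48.1% (40.6 to 55.6%). At the control frequencies chromatin exceeded cytoplasm in 45.9% and 47% and nucleoplasm exceeded cytoplasm in 47% and 49.2%. Median ratios at 3 nt were 1.46 in chromatin, 1.61 in nucleoplasm and 1.11 in cytoplasm, and at the control frequencies they lay between 0.682 and 0.850. The median at 3 nt was thus above those at the control frequencies in each compartment, and far below the cut of 5. ENST00000309311 (3164 nt) had the strongest, at 61.5 in chromatin, 50.8 in nucleoplasm and 20.9 in cytoplasm. ENST00000375651 had 36.4, 30.9 and 13.2, and 9 transcripts passed in all 3 compartments. Coding regions were not located, and this measure was chosen after values had been seen.

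Along the transcript, the median chromatin deficit was present in every part, but its size varied. In transcripts of 1000 nt or more, split into 5 equal parts of their length, the median difference of chromatin minus nucleoplasm from the 5′ to the 3′ part was -0.0407, -0.0495, -0.0577, -0.0509 and -0.0564. Chromatin minus cytoplasm ran from -0.0365 in the first part to -0.0436 in the last. With shorter transcripts included, chromatin minus nucleoplasm was -0.0187 in the first part and -0.0434 in the last. There 35.6% of transcripts were higher in chromatin in the first part and 17.6% in the last. Transcripts differ between the 5 parts, because only those with enough shared nucleotides in a part were used.

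The same nucleotides had in vivo scores in all 3 compartments for 376 of the transcripts. After refolding, 20.5% were higher in chromatin than in nucleoplasm, against 54% in vivo. For chromatin against cytoplasm the shares were 27.1% after refolding and 62.5% in vivo, and for nucleoplasm against cytoplasm 48.7% and 61.4%. Median differences were -0.0298 after refolding against 0.0038 in vivo, -0.0323 against 0.0091, and -0.0015 against 0.0087, in the same order of comparisons. Chromatin was thus low after refolding and not low in living cells in this deposited scale. Zeros followed, with a median of 26.6% in chromatin, 14.0% in nucleoplasm and 17.9% in cytoplasm after refolding and 21.3%, 22.6% and 27.1% in vivo. Refolded and in vivo files of a compartment share their DMSO control.

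Refolded mES RNA, taken by the same rule over 942 transcripts, differed in part. Chromatin was higher than nucleoplasm in 17.3% in HEK293 and 28.5% in mES cells (25.6 to 31.4%). It was higher than cytoplasm in 28.5% in HEK293 and 48.4% in mES cells (45.2 to 51.7%), and nucleoplasm was higher than cytoplasm in 58.3% and 72.9% (69.97 to 75.7%). The median difference of chromatin minus cytoplasm was -0.0323 in HEK293 and -0.0009 in mES cells. Over nucleotides above 0 in all 3 files, chromatin exceeded nucleoplasm in 17% in HEK293 and 42.7% in mES cells, and cytoplasm in 27% and 52.4%. Without zeros, lower chromatin was thus found in fewer of the mES transcripts, and in about as many of the HEK293 ones. In both cell lines chromatin had the most zeros, with 27.6% in HEK293 and 43.6% in mES chromatin, against 15.3% and 25.5% in nucleoplasm. Cell line cannot be told apart from rRNA removal kit and sequencer, which differed between them, and the difference between the lines was not tested.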

How the data were processed

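The icSHAPE files as deposited held, per transcript, its length, a signal for its abundance (the sources used here name no unit), and a score per nucleotide from 0 to 1 or missing. No deposited score covered the first 6 or the last 30 nucleotides. Per the submitters' processing notes, Bowtie2, UMI-tools and hg38 were used; the sources used here do not give versions, the scaling of scores, read depth or any pooling of replicates. Mean scores per transcript were taken over nucleotides scored in all 3 files, with at least 100 required, and compared as deposited, as ranks and above 0. Intervals are exact (Clopper-Pearson) 95% binomial intervals over transcripts. With 1 sample per group no test between samples was run. Shifts added evenly to every nucleotide of simulated scores came back with their sign, which checks the calculation only. The simulation did not model partial scoring or scaling that differs between files, so nothing about these data is drawn from it. Named transcripts were the 5 highest and 5 lowest differences per comparison that kept their sign in 5 treatments, the 3 highest and 3 lowest median profile correlations with at least 200 shared nucleotides, and the 3 with the most shared nucleotides. Members, lists and measures were chosen with earlier results of these data known. Alternatives covered ranks, scaling, coverage, abundance, families and medians. Python 3.11.15, numpy 2.4.6, pandas 2.3.3 and scipy 1.17.1 were used. Human sequence and transcript models were not used here.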

Additional observations from a re-analysis of the deposited data

Results flagged for a closer look

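On the same nucleotides of 376 transcripts, the median difference had opposite signs in refolded and in vivo RNA. For chromatin minus nucleoplasm it was -0.0298 after refolding and 0.0038 in vivo, and for chromatin minus cytoplasm -0.0323 after refolding and 0.0091 in vivo. For nucleoplasm minus cytoplasm it was -0.0015 after refolding and 0.0087 in vivo. This last refolded value has no clear direction, with 48.7% of transcripts higher in nucleoplasm (43.5 to 53.8%), and over all 681 transcripts the refolded median was 0.0090, the same sign as in vivo. The difference between the probing conditions was not tested, since each condition had 1 sample per compartment.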

How the results depend on the processing

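Of 16 alternatives for each comparison, 9 kept the share of chromatin above nucleoplasm within its interval, 11 that of chromatin above cytoplasm and 9 that of nucleoplasm above cytoplasm. Chromatin against nucleoplasm (17.3%) turned with ranks within the file (60.5%). It moved to 48.9% with ranks over shared nucleotides, 45.4% with each file divided by its mean, 22.2% with at least 50 shared nucleotides, 10.7% with abundance within 1.5 times, 21.7% among the more abundant transcripts (those at or above the median of the lowest abundance) and 22% with at least 80% scored. Chromatin against cytoplasm (28.5%) turned with ranks within the file (63.6%). With ranks over shared nucleotides it reached 51.2% (47.4 to 55.1%), an interval that includes 50%. It moved to 45.2% with each file divided by its mean, 33.7% with at least 50 nucleotides and 23.4% with at least 200. Nucleoplasm against cytoplasm (58.3%) turned with ranks over shared nucleotides (47.4%), among the more abundant transcripts (49.6%), with at least 80% scored (44%) and with 4 to 6% of scores at 1 in each file (44.6%). It moved to 52% with ranks within the file, 52.7% with each file divided by its mean and 54.2% over all nucleotides of the pair. The coverage and share-at-1 alternatives were chosen after seeing the data, and the cause of these changes was not tested, except that ranks over shared nucleotides and division by the file mean give the files equal means over the nucleotides compared and so bring shares towards 50% by construction. Median profile correlations kept within their spread under all 9 alternatives, from 0.515 to 0.726. No paired analysis was possible because each compartment had 1 sample. Read depth is unknown, so its effect on single transcripts could not be measured.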
